A study of Mus musculus with 6 samples.

Results

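The nuclei described here were endothelial nuclei of the mouse forebrain, picked out of a single-nucleus RNA-sequencing (snRNA-seq) data set by their own counts of unique molecular identifiers (UMIs, each standing for 1 captured transcript). A nucleus was taken as endothelial when it held at least 2 UMIs of Flt1, at least 2 of the 7 genes Cldn5, Ptprb, Cdh5, Slco1a4, Mecom, Adgrl4 and Abcb1a, at most 1 UMI of the mural genes Pdgfrb, Abcc9 and Notch3 together and at most 1 UMI of the neuronal genes Slc17a7, Slc17a6, Gad1 and Gad2 together. Of 75878 barcodes in the matrix, 11 with 10% or more mitochondrial UMIs were left out, and 2701 of the remaining 75867 nuclei met the rule (3.56%, exact 95% binomial interval 3.43 to 3.69).

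The forebrains came from 3 wild-type (WT) mice and 3 Npc1-/- mice, all at postnatal day 16 (P16). Npc1-/- mice are homozygous for the nih null allele of Npc1, which encodes the lysosomal protein that passes cholesterol out of late endosomes and lysosomes, and they model Niemann-Pick disease type C. All animals were F1 hybrids of BALB/cJ and C57BL6/J carriers and were left untreated, and every cell of an Npc1-/- mouse carries the null allele, endothelial or not. The 6 libraries were deposited as a single matrix whose barcodes end in a number from 1 to 6 with no key to the mouse, so nothing below compares genotypes, each library is given by its number, and the 6 are not treated as replicates of any group.

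Endothelial cells line blood vessels, and in the brain they build the blood-brain barrier. Tight junctions close the gaps between neighbouring cells, vesicle traffic across the cell is kept low, and carriers and pumps in the membranes set which sugars, amino acids, hormones and drugs enter or leave the tissue. Wnt ligands from neural cells hold this program in place through frizzled receptors, and pericytes and smooth muscle cells, together called mural cells, wrap the vessel and are recruited by platelet-derived growth factor from the endothelium. Along the vascular tree the endothelium shifts from arterial to capillary to venous gene programs.

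Libraries 5 and 6 stood apart. Endothelial nuclei were 3.94% (interval 3.62 to 4.27), 4.09% (3.79 to 4.41), 4.06% (3.75 to 4.39) and 4.67% (4.30 to 5.06) of libraries 1 to 4, and 1.77% (1.53 to 2.04) and 1.70% (1.44 to 2.01) of libraries 5 and 6, from 542, 659, 600, 569, 191 and 140 endothelial nuclei. Mural nuclei, taken by a matching rule (at least 3 UMIs of Pdgfrb, Abcc9 and Notch3 together, at least 2 of 8 mural genes, at most 1 UMI each of Flt1 and of the neuronal genes), were also fewest there, at 0.278% and 0.45% against 0.622% to 0.779% in the other libraries. The intervals of the endothelial share in libraries 5 and 6 lay below those of the other 4, and without these libraries the pooled share was 4.17%. The libraries held 8215 to 16109 nuclei, with a median of 4471 to 5439 UMIs per nucleus. Endothelial nuclei were shallower, with a median of 3381 UMIs (2594 to 3945 by library) against 5058 in all other nuclei, and together they held 10975958 UMIs. The same 16-base barcode occurred in more than 1 library for 1264 nuclei (1.67%), among them 37 endothelial nuclei (1.37%), of which 2 were endothelial in another library as well.

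**Figure D1:**
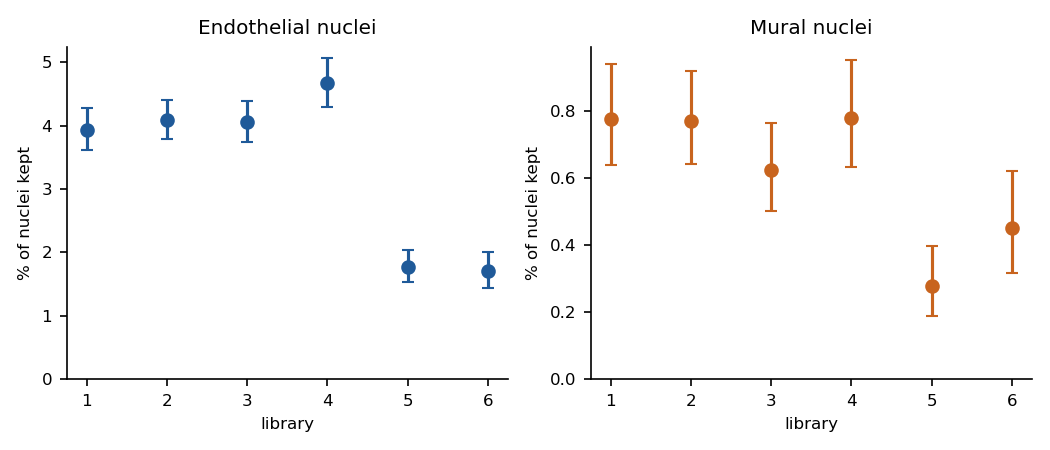
Share of nuclei (%, vertical axis) that met the endothelial rule and the mural rule in each of the 6 libraries, with exact 95% binomial intervals as bars. Libraries 5 and 6, at 1.77% and 1.70% endothelial, lie below libraries 1 to 4 at 3.94% to 4.67%, and the mural share is lowest in the same libraries.

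Levels are given as counts per 1000000 UMIs (CPM) summed over a set of nuclei, with exact Poisson or binomial intervals at 95% that cover counting error only. A level is set beside another level of the same gene or list, and not beside that of another gene. A gene entered a comparison with at least 50 UMIs in both sets together, and a 2-fold difference is the size that is counted. A gene high only in the set with more UMIs enters more easily, so the counts of higher and lower genes are not on an equal footing. The compared sets were chosen by the counts of the same nuclei, so no test was made, and every comparison is a description of these 6 libraries. Because each compared set is a set of nuclei, a higher CPM is a larger part of the RNA of those nuclei, and the amount of RNA per nucleus is not measured by it.

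The genes that chose the nuclei are high in them by construction and are listed as a description. Flt1, a receptor for vascular endothelial growth factor, stood at 2525 CPM (2189 to 3929 by library), Mecom, a zinc-finger transcription factor, at 1363 (1213 to 1647), Slco1a4, an organic anion transporter, at 1210.4 (909 to 1685), Adgrl4, an adhesion receptor, at 992 (771 to 1573) and Cldn5, the main tight-junction claudin of the barrier, at 435 (255 to 945). All other nuclei held these genes at 100.2, 59.1, 56.3, 44.6 and 57.1 CPM. The highest Cldn5 values were in libraries 5 and 6.

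Genes outside the rule fitted the label. Of 25 genes fixed as endothelial identity genes (adhesion molecules, receptors and transcription factors), 25 were at least 2-fold higher than in all other nuclei, where 14.0% of all 22118 genes compared were that much higher (9.92% under trimmed mean scaling, which lowers every such log2 ratio by 0.23 and puts 18.0% of genes 2-fold lower), and their summed level was 6111 CPM against 544. After each nucleus was thinned to 2000 UMIs, which left out 266 shallower endothelial nuclei, Pecam1, an adhesion molecule of the cell border, was detected in 39.2% of endothelial nuclei (54.7% unthinned), 3.51% of mural nuclei and 2.61% of astrocyte nuclei. The secreted factor Egfl7 was detected in 51.4%, 3.27% and 2.86% of the same sets (66.8% of endothelial nuclei unthinned), and Tek, the angiopoietin receptor, in 41.9%, 3.97% and 2.69%. Astrocytes should lack these genes, so the astrocyte shares are taken as the background at this depth. Astrocyte and mural nuclei were chosen with at most 1 UMI of Flt1, which leaves out nuclei that carry endothelial RNA, so this background may be too low. The median depth before thinning was 4018.5 UMIs in astrocyte and 3391 in mural nuclei.

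RNA of other cell types was present as well. The 10 neuronal markers summed to 5571 CPM against 12997, and by library this sum was 4686, 5258, 5932, 7376, 3192 and 2913 CPM in libraries 1 to 6. The summed identity genes stood at 5838, 6483, 6319, 4836, 8251 and 8102 CPM: library 4 had the highest neuronal sum and the lowest identity sum, and libraries 5 and 6 had the lowest neuronal and the highest identity sums. Of the 8 astrocyte markers only Gja1 was 2-fold higher than in all other nuclei, and their sum was 2599 CPM against 1966. Over all genes 14.0% were 2-fold higher, the share to set beside this and the following counts of members. The 8 oligodendrocyte markers summed to 2190.4 CPM against 1533 (756 to 4206 by library, 1 of 8 members 2-fold higher) and 7 choroid plexus and ependymal markers to 609.8 CPM against 359.5 (404 to 767 by library, 0 of 7 members 2-fold higher), and both sums were higher than in all other nuclei in 6 of 6 libraries. Haemoglobin genes with Alas2 and Ptprc summed to 596 CPM against 239, and the haemoglobin pairs are near-identical copies whose reads may be split between them. The mural genes that the rule limits were not at 0 either: Pdgfrb stood at 14.9, Abcc9 at 8.11 and Notch3 at 11.4 CPM. The part these other RNAs play in the levels below was not tested.

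At the lower limits of the rule, identity genes rose in steps. Nuclei that met every other criterion held the 25 identity genes at 801 CPM with 1 UMI of Flt1 (993 nuclei, outside), at 2092 with 2 UMIs (276 nuclei, inside), at 3557 with 3 (187 nuclei) and at 4988 with 4. With 1 of the other endothelial genes detected the sum was 544.5 CPM (286 nuclei, outside), and with 2, 3 and 4 it was 1477 (207 nuclei), 3704 (226) and 5184 CPM. The nuclei just inside these 2 limits therefore held less endothelial RNA than the rest. Across the upper limit on mural UMIs the sum changed little, at 6133, 6004 and 5808 CPM for 0, 1 and 2 UMIs. Further outside it was higher, at 6658 CPM for 3 and 7057 CPM for 4 UMIs. The pericyte gene Atp13a5, which the rule did not use, went from 23.5 to 87.2 to 349 CPM for 0, 1 and 2 UMIs. The upper limit on neuronal UMIs crossed a gradual fall, at 6505 CPM for 0, 5652 for 1, 4445 for 2 and 3274 for 3 UMIs. Of 5057 nuclei that met both endothelial criteria, 1277 exceeded the mural limit and 1469 the neuronal limit, 390 of them both, so the 2701 are a strict selection.

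**Figure D2:**
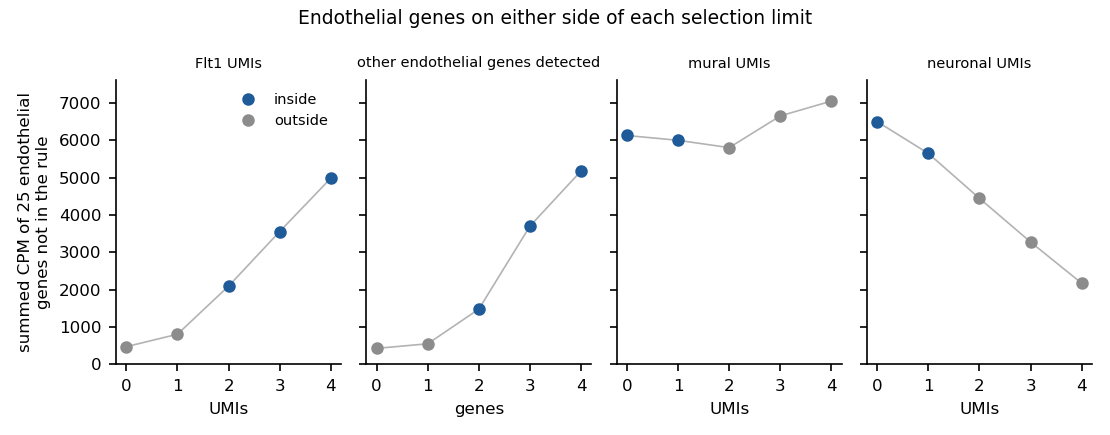
Summed CPM of the 25 endothelial identity genes (vertical axis) at each value of the 4 criteria of the rule (horizontal axes, UMIs or genes detected), with nuclei inside the rule in blue and outside in grey. The sum climbs from 801 to 2092 CPM across the Flt1 limit, stays near 6000 across the mural limit and falls from 5652 to 4445 CPM across the neuronal limit.

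The endothelial nuclei were cut into 4 equal bands of depth. From the shallowest to the deepest band, identity genes stood at 6663, 6925, 7121 and 5084 CPM and solute carriers at 6765, 6671, 6584 and 5065 CPM. Neuronal markers stood at 5303, 5088, 4921 and 6191 CPM and astrocyte markers at 1895, 2021, 2256 and 3212 CPM. Oligodendrocyte markers stood at 2670, 2281, 1859 and 2199 CPM and mural markers at 902, 975, 1080 and 794 CPM. The deepest band thus held the least of the identity genes, carriers and mural markers and the most neuronal and astrocyte RNA, whereas oligodendrocyte RNA was highest in the shallowest, and the part that droplets with more than 1 nucleus play in this was not tested.

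Outside the rule genes, the 25 genes with the highest ratio of endothelial to all other CPM were chosen from these data and are given with no test. Tecrl (27.6 CPM), Dipk2b (134), the zinc-finger gene Zfp366 (476), Cyyr1 (445), Hmcn1, an extracellular matrix protein (899), Nostrin, a partner of endothelial nitric oxide synthase (444), and Ushbp1 (131) were 26.5-, 26.3-, 25.1-, 23.5-, 22.1-, 22.0- and 21.2-fold above all other nuclei. The remaining 18 ran from 22.1-fold (Igsf5) to 17.1-fold and included Ly75, Ccm2l, Tead4, the long non-coding RNA Fendrr, Kcp, Rassf9, the efflux pump Abcc6, Clec1a, Egfl7, the death ligand Tnfsf10, the death receptor Fas, the ETS transcription factor Ets1, Fgd5, Paqr5, the thiamine carrier Slc19a3, Thsd1 and Arap3. All 25 were higher than in all other nuclei in 6 of 6 libraries, the same libraries whose pooled ratio chose them, so this adds no support. In the mm10 annotation these genes lie apart: Cyyr1 on chromosome 16 (85421533 to 85553397, minus strand), Egfl7 on chromosome 2 (26580014 to 26593120, plus strand), Ushbp1 on chromosome 8 (71384272 to 71395802, minus strand) and Zfp366 on chromosome 13 (99184823 to 99250656, plus strand).

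ETS-family transcription factors bind letters built on GGAA and are the best-known class of endothelial regulators. The 250 bases before the RefSeq start (GRCm38.p6) were available as 18 windows of 16 of the 25 genes. CAGGAAG on either strand occurred in 7 of the 18 (38.9%), in Cyyr1, Egfl7, Fendrr, Kcp, Tnfsf10 and Ushbp1, and in 10.8% of all 32851 promoter windows of that length. The shorter AGGAAG, which also lies inside CAGGAAG, occurred in 61.1% against 29.5%. CCGGAAG occurred in 0 of 18 against 6.91%, TGTTTAC (forkhead) in 11.1% against 3.17%, CATTGT (SOX) in 11.1% against 10.7% and CTTTGAT (TCF and LEF) in 11.1% against 3.21%, all searched on both strands. The motifs were chosen after the genes were known, the windows are few, and a match is a description of letters. The 3 windows below hold CAGGAAG and are printed to show where it lies, in lower case from 5' to 3' on the strand of the gene, because they come from leading genes, with CAGGAAG and its reverse complement CTTCCTG in capitals. The Cyyr1 window is chr16:85550374-85550623 (minus strand), the Egfl7 window chr2:26580833-26581082 (plus strand) and the Ushbp1 window chr8:71395802-71396051 (minus strand), and the first pair lie inside the gene bounds given above, which start at more distant first exons.
Cyyr1: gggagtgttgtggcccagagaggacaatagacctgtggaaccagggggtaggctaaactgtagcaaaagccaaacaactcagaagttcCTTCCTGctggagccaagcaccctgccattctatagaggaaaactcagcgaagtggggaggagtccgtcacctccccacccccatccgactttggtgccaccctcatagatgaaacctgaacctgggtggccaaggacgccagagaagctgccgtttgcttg
Egfl7: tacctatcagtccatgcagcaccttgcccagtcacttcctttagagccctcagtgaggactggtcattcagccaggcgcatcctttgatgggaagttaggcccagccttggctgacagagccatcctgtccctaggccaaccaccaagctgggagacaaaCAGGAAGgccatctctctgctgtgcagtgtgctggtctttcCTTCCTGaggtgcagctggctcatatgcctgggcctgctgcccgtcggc
Ushbp1: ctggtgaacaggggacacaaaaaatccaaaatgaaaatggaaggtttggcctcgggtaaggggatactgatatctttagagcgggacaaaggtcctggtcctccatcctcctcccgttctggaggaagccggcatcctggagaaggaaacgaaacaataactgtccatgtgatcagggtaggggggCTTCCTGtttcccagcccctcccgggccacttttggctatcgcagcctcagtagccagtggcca
Egfl7 holds the letters on both strands within this window, and Cyyr1 and Ushbp1 hold 1 match each. The genes carried by these starts stood at 379.6 CPM against 20.8, 445 CPM against 19.0 and 131 CPM against 6.18 in all other nuclei.

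Nutrient carriers were high in endothelial nuclei. The list had 24 solute carriers and related membrane genes, all of which had enough UMIs. Of these, 22 were at least 2-fold higher than in all other nuclei and 0 were 2-fold lower, beside 14.0% and 13.5% of all genes. Their summed level was 5938 CPM against 929.8, a log2 ratio of 2.67 (2.66 to 2.69), and it was higher in 6 of 6 libraries. Against mural nuclei the sum was 5938 CPM against 1157, a log2 ratio of 2.36 (2.30 to 2.42), with 22 members 2-fold higher, where 8.07% of 13711 genes compared were that much higher, and 1 lower, where 5.70% were. The mural set shares the vessel wall with the endothelium, so this second comparison was meant to set 2 vascular cell types side by side. The mural nuclei, however, held astrocyte markers at the level of astrocyte nuclei (6267 and 6198 CPM), and this holds for every mural comparison below.

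Slc2a1, the glucose transporter of the barrier, stood at 270.2 CPM in the lowest library, 421 at the median and 849 in the highest, and in mural nuclei at 17.9, 41.8 and 63.0. The sets did not overlap over libraries, and the pooled log2 ratio was 3.04 (2.75 to 3.34). Slc7a5, the large neutral amino acid transporter, stood at 395 CPM in the lowest library, 522 at the median and 981 in the highest, with a pooled 35.4 CPM in mural nuclei and a log2 ratio of 3.88 (3.55 to 4.23). For both genes libraries 5 and 6 gave the highest values. The partner chain of Slc7a5, Slc3a2, is used by many cell types and differed less, at 128 CPM, against 59.9 in all other nuclei and 88.1 in mural nuclei.

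Slco1c1, which carries thyroxine, stood at 1193 CPM, against 97.0 in all other nuclei and 171 in mural nuclei, a log2 ratio over mural nuclei of 2.80 (2.65 to 2.96). Slc7a1, for cationic amino acids, stood at 464 CPM against 37.3 in mural nuclei, Slc16a1, for lactate and ketone bodies, at 385 CPM against 61.8, the zinc importer Slc39a10 at 548 CPM against 63.2 and the taurine carrier Slc6a6 at 655 CPM against 115. The iron exporter Slc40a1 stood at 186 CPM against 14.4 and the thiamine carrier Slc19a3 at 52.3 CPM against 1.92. Mfsd2a, a lysolipid carrier that keeps vesicle traffic low at the barrier, stood at 127 CPM in the lowest library, 159 at the median and 358 in the highest, and its log2 ratio over mural nuclei was 1.99 (1.68 to 2.32).

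Some carriers were shared with other cells of the vessel and its surround. Slc22a8, an organic anion carrier, was 1.23-fold above fibroblast nuclei, the class with its next highest level. Slco2b1 stood at 149 CPM and was higher in microglia, at 276 CPM. Slc7a11, the cystine-glutamate exchanger, was the member that was 2-fold lower than in mural nuclei, at 64.9 CPM against 152 CPM (log2 -1.23, -1.42 to -1.03), and fibroblast nuclei held 954 CPM.

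Efflux pumps differed among themselves. The rule used Abcb1a, the drug pump P-glycoprotein of rodent brain, so it is no finding, and 5 of the 9 other pumps were 2-fold higher than in all other nuclei, as 14.0% of all genes were. Abcg2, the breast cancer resistance protein, stood at 235 CPM in the lowest library, 348 at the median and 583 in the highest, with 46.9 CPM in mural nuclei and a log2 ratio of 2.77 (2.48 to 3.07). Abcc4 stood at 406 CPM, against 34.8 in all other nuclei and 33.0 in mural nuclei, and Abcc6 at 78.5 CPM, against 4.13 in all other nuclei and 5.74 in mural nuclei. Abca1, which moves cholesterol onto lipoproteins, stood at 223 CPM, against 52.3 in all other nuclei and 136 in mural nuclei, and its relative Abcg1 at 61.8 CPM, against 27.8 in all other nuclei and 18.7 in mural nuclei. The remaining 4, Abcb1b, Abcc1, Abcc5 and Abcb9, were lower than in all other nuclei in 6 of 6 libraries, with values of 5.83, 17.5, 129.8 and 22.2 CPM against 9.27, 33.9, 191 and 35.1, and none reached 2-fold.

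Junction genes divided into barrier members and members that many cells use. Of 20 (Cldn5 left aside), 14 were 2-fold higher than in all other nuclei and 0 lower, beside 14.0% and 13.5% of all genes. The sum was 4516 CPM against 1901. Ocln, a membrane protein of tight junctions, stood at 135 CPM in the lowest library, 178 at the median and 235 in the highest, and in mural nuclei at 0, 7.70 and 23.4, with no overlap over libraries and a pooled log2 ratio of 3.88 (3.3 to 4.52). The scaffold Tjp1 stood at 1225 CPM against 489 in mural nuclei, Lsr, a protein of tricellular junctions, at 93.4 CPM against 15.3, its partner Marveld2 at 18.5 CPM against 1.92 and the adherens scaffold Afdn at 397 CPM against 126. Cgnl1, a junction adaptor, was closer between the vascular sets at 199 CPM against 112, and the polarity gene Pard3 stood at 330 CPM against 339 (log2 -0.04, -0.16 to 0.08). Jam3 stood at 45.1 CPM against 68.3 in all other nuclei. Other claudins were sparse: Cldn12 stood at 15.3 CPM, and Cldn1 and Cldn3 gave 9 and 4 UMIs in all endothelial nuclei.

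Cargo receptors of the barrier and several vesicle genes were high. Of 15 transcytosis genes 9 were 2-fold higher than in all other nuclei and 0 lower, beside 14.0% and 13.5% of all genes. The transferrin receptor Tfrc stood at 410.3 CPM in the lowest library, 579.9 at the median and 848 in the highest, with 74.7 CPM in mural nuclei and a log2 ratio of 2.85 (2.62 to 3.09). The insulin receptor Insr stood at 589.8 CPM against 163 in mural nuclei and the reelin and apolipoprotein E receptor Lrp8 at 316 CPM against 47.4. The caveolar genes Cav1 and Cavin2 stood at 54.0 CPM against 7.53 and 36.2 CPM against 6.63 in all other nuclei. Plvap, the diaphragm protein of fenestrated endothelium, gave 47 UMIs, a level of 4.28 CPM, against 5.37 in all other nuclei and 1.92 in mural nuclei, and its log2 ratio to all other nuclei was -0.33 (-0.78 to 0.09). Lrp1, which clears lipoproteins and amyloid, was 2-fold lower than in mural nuclei, at 68.2 CPM against 153 (log2 -1.16, -1.35 to -0.97).

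Wnt pathway genes were high at the level of receptors, nuclear effectors and targets. Of 20, 17 were 2-fold higher than in all other nuclei and 0 lower, and the sum was 2829 CPM against 610.4, a log2 ratio of 2.21 (2.19 to 2.23). Against mural nuclei 11 were 2-fold higher and 0 lower. Over all genes the shares 2-fold higher were 14.0% against all other nuclei and 8.07% against mural nuclei, and the shares 2-fold lower 13.5% and 5.70%. Among receptors, Fzd4 stood at 51.5 CPM against 10.1 in mural nuclei and Fzd6 at 202 CPM against 54.1. The co-receptor genes that bind Wnt7 or norrin were closer to the mural level: Adgra2 stood at 64.7 CPM against 37.3, Reck at 44.0 CPM against 57.4 and Tspan12 at 52.1 CPM against 55.0. The nuclear effector Lef1 stood at 523 CPM in the lowest library, 602 at the median and 777 in the highest, with 78.0 CPM in mural nuclei and a log2 ratio of 2.91 (2.68 to 3.14), whereas Tcf7l1, of the same family, stood at 101 CPM against 159. Among targets and feedback inhibitors, Apcdd1 stood at 549.7 CPM against 99.1, Nkd1 at 108 CPM against 21.5, Notum, which removes the lipid from Wnt ligands, at 60.8 CPM against 5.27, and Axin2 at 40.9 CPM against 35.9. The transcription factors Foxq1 and Foxf2, which belong to the brain endothelial program, stood at 58.3 and 22.3 CPM, with 12.9 and 9.57 in mural nuclei.

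Among growth factor genes, receptors were higher than in mural nuclei and a pair of ligands was lower. Of 14 vascular endothelial growth factor and angiopoietin genes 9 were 2-fold higher than in all other nuclei and 0 lower. Over all genes these shares were 14.0% and 13.5%. Against mural nuclei 9 of the 12 that had enough UMIs were 2-fold higher and 2 lower, beside 8.07% and 5.70% of all genes. Kdr, the main signalling receptor, stood at 186 CPM in the lowest library, 265 at the median and 404 in the highest, with 28.7 CPM in mural nuclei and a log2 ratio of 3.15 (2.78 to 3.54). Tek stood at 244 CPM in the lowest library, 328 at the median and 358 in the highest, with 18.7 CPM in mural nuclei and a log2 ratio of 4.04 (3.59 to 4.54), and its co-receptor Tie1 at 89.9 CPM against 14.4. The receptor Flt4 stood at 46.1 CPM against 3.83, and the apelin receptor Aplnr at 29.4 CPM against 3.83. The 2 members lower than in mural nuclei were the ligands Vegfa, at 31.2 CPM against 88.1 (log2 -1.50, -1.76 to -1.23), and Angpt1, at 28.6 CPM against 80.9 (log2 -1.50, -1.77 to -1.22). Angpt2, the antagonist made by endothelium, had the opposite direction to Angpt1, at 62.3 CPM against 21.1.

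Of 11 Notch pathway genes, 7 were 2-fold higher than in all other nuclei (14.0% of all genes were). The endothelial receptor Notch4 stood at 66.9 CPM against 12 in mural nuclei, the ligand Dll4 at 28.7 CPM against 4.79 and the ligand Jag2 at 82.7 CPM against 16.8. Notch1 and Jag1 were near the mural level, at 103 CPM against 87.6 and 32.7 CPM against 34.9. The Notch targets Hey2 and Heyl were 2-fold lower than in mural nuclei, at 5.47 CPM against 39.2 (log2 -2.84, -3.35 to -2.35) and 3.46 CPM against 43.1 (log2 -3.64, -4.22 to -3.08), and the pathway summed to 439 CPM against 355 in mural nuclei.

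Of 15 genes of bone morphogenetic protein (BMP) and transforming growth factor beta signalling, 11 were 2-fold higher than in all other nuclei. Over all genes the share 2-fold higher was 14.0%. Eng, the co-receptor endoglin, stood at 401 CPM against 82.8 in mural nuclei, its partner Acvrl1 at 91.8 CPM against 12.4, the type II receptor Bmpr2 at 608 CPM against 186, the inhibitor Smad6 at 68.7 CPM against 20.1 and the target Id1 at 188 CPM against 46.4. Against mural nuclei 7 of the 15 were 2-fold higher and 1 was lower, beside 8.07% and 5.70% of all genes. The lower member was the receptor Bmpr1a, at 60.4 CPM against 159.9 (log2 -1.40, -1.60 to -1.21). The ligands Bmp6 and Bmp4 were also lower than in mural nuclei, under 2-fold, at 62.4 CPM against 107 and 6.29 CPM against 11. Fibroblast nuclei held more of the list than endothelial nuclei, at 2857 CPM against 2273.

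Among genes of blood flow and nitric oxide signalling, the enzyme that makes nitric oxide was higher in endothelial nuclei and enzymes that act after it were lower than in mural nuclei. Nos3, endothelial nitric oxide synthase, stood at 76.8 CPM in the lowest library, 113 at the median and 168 in the highest, with 7.18 CPM in mural nuclei and a log2 ratio of 3.89 (3.16 to 4.73). The receiving enzymes, the guanylate cyclase subunit Gucy1a1 and the phosphodiesterase Pde5a, were lower than in mural nuclei, at 31.7 CPM against 175 (log2 -2.46, -2.68 to -2.25) and 81.9 CPM against 188 (log2 -1.20, -1.37 to -1.02). After thinning to 2000 UMIs, Pde5a was still detected in 15.1% of endothelial nuclei (24.8% unthinned), against 3.41% of astrocyte nuclei and 33.2% of mural nuclei. The flow-induced factor Klf2 stood at 116 CPM in the lowest library, 229 at the median and 552 in the highest, and libraries 5 and 6 gave its highest values. The mechanosensitive channel Piezo1 stood at 79.8 CPM against 12.9 and the vasoconstrictor peptide gene Edn1 at 61.5 CPM against 3.35. Of the 15 genes in this group, 11 were 2-fold higher than in all other nuclei and 0 lower, beside 14.0% and 13.5% of all genes.

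Of 14 genes of leukocyte capture and antigen presentation, 12 had enough UMIs. Of these, 9 were 2-fold higher than in all other nuclei, as 14.0% of all genes were, but the inducible adhesion molecules were sparse. Sele and Selp gave 0 UMIs in 10975958, which allows up to 3 counts in that total, and Ccl2 gave 1 UMI. Icam1 stood at 14.8 CPM, against 1.81 in all other nuclei and 1.44 in mural nuclei, Icam2 at 28.5 CPM, against 4.36 in all other nuclei and 5.27 in mural nuclei, Vcam1 at 20.3 CPM, against 11.4 in all other nuclei and 33.0 in mural nuclei, and Ackr1, a marker of large venules, at 9.11 CPM, against 9.46 in all other nuclei and 9.57 in mural nuclei. The member with the most UMIs was the chemokine Cxcl12, at 381 CPM in the lowest library, 810.1 at the median and 1061 in the highest, with 51.2 CPM in mural nuclei and a log2 ratio of 3.71 (3.44 to 4.0).

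Matrix genes of the vessel were shared with mural cells. Of 19 basement membrane genes 17 were 2-fold higher than in all other nuclei, where 14.0% of all genes were, with a sum of 3403 CPM against 799. Against mural nuclei, however, 4 were 2-fold higher and 2 lower, nearer to the 8.07% and 5.70% of all genes. The sums were 3403 against 2872 CPM. The 4 were fibronectin (Fn1, 476 CPM against 81.4), the laminin chain Lama5 (39.2 CPM against 11), perlecan (Hspg2, 73.2 CPM against 29.7) and Nid2 (50.1 CPM against 20.6). The 2 lower members were Lama2, at 89.0 CPM against 578 (log2 -2.7, -2.82 to -2.58), and Col4a5, at 13.5 CPM against 40.7 (log2 -1.59, -1.99 to -1.19). Lama4 stood at 256 CPM against 159.9, and Col4a1, a main chain of vascular collagen IV, at 337 CPM against 211, below 2-fold.

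Signals that endothelium is known to send to mural cells differed in how far they set endothelial from mural nuclei. All 10 genes of this group were 2-fold higher than in all other nuclei, where 14.0% of all genes were. Against mural nuclei 6 were 2-fold higher, beside 8.07% of all genes. Pdgfb, the ligand that recruits pericytes through Pdgfrb, stood at 108 CPM in the lowest library, 139.8 at the median and 203 in the highest, and in mural nuclei at 0, 11.7 and 24.9. The libraries did not overlap between the sets, and the pooled log2 ratio was 3.14 (2.64 to 3.70). Pdgfd, a second ligand of the same receptor, stood at 518 CPM in the lowest library, 628 at the median and 784 in the highest, with 102 CPM in mural nuclei and a log2 ratio of 2.60 (2.40 to 2.80). The latent growth factors Tgfb1 and Tgfb2 stood at 37.7 CPM against 23.5 and 88.1 CPM against 53.6 in mural nuclei, and Tgfb1 was higher in microglia, at 57.3 CPM. Jag1, near the mural level, and Hbegf were also under 2-fold.

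**Figure D3:**
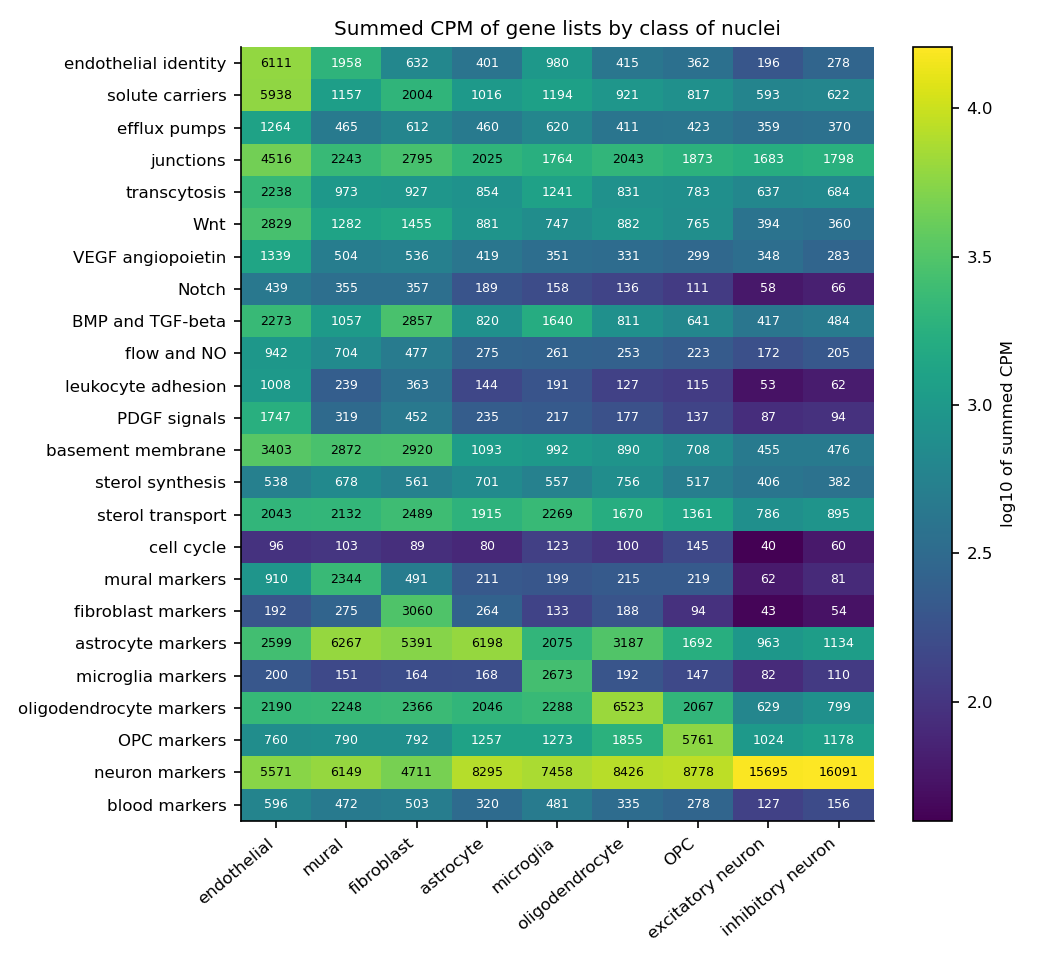
Summed CPM (colour, log10 scale) of each fixed gene list (lines) in endothelial nuclei and the 8 other classes of nuclei (columns). Solute carriers read 5938 CPM in endothelial, 1157 in mural and 2004 in fibroblast nuclei, whereas sterol synthesis genes read 538, 678 and 561 CPM in the same sets.

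The line between endothelial and mural nuclei was not drawn by every gene that commonly marks pericytes. Of 12 mural markers that the endothelial rule did not use, 8 of the 11 with enough UMIs were 2-fold lower than in mural nuclei. Over all genes compared that share was 5.70%. The mural rule, however, used Rgs5, Kcnj8, Atp13a5, Acta2 and Myh11 of these 12. Their level in mural nuclei is therefore partly high by construction, and the count is a description. Atp13a5 stood at 34.5 CPM against 1281 (log2 -5.21, -5.37 to -5.06), Kcnj8, a potassium channel subunit, at 6.38 CPM against 50.7, the matrix protein Vtn at 62.6 CPM against 229 and Cspg4, the NG2 proteoglycan, at 15.2 CPM against 103. Rgs5, a regulator of G-protein signalling often used as a pericyte marker, went the other way: it stood at 530 CPM in the lowest library, 812 at the median and 1149.5 in the highest in endothelial nuclei and at 322, 483 and 700.1 in mural nuclei, a pooled log2 ratio of 0.49 (0.39 to 0.58), higher in 5 of 6 libraries and lower in library 4. In the 1425 endothelial nuclei with 0 UMIs of the 14 other mural genes, Rgs5 was still 670 CPM (649 to 693). After thinning to 2000 UMIs, Rgs5 was detected in 57.1% of endothelial nuclei (55.1 to 59.1), 56.3% of mural nuclei (51.5 to 61.1), 15.8% of astrocyte nuclei and 19.8% of microglia. The transcription factor Ebf1, 1 of the 25 identity genes, was also shared, at 1146 CPM against 1239.8 (log2 -0.11, -0.17 to -0.05, higher in 3 of 6 libraries).

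Mural nuclei were not clean of astrocyte RNA, and this bears on the same comparison. Astrocyte markers summed to 6267 CPM in mural nuclei, 6198 CPM in astrocyte nuclei and 2599 CPM in endothelial nuclei. Neuronal markers were closer, at 6149 CPM in mural and 5571 CPM in endothelial nuclei. The mural and astrocyte classes did not exclude each other. The part of this RNA in the mural levels was not tested. Mural libraries 5 and 6 held only 30 and 37 nuclei, so a mural value of 0 in them (Ocln, Pdgfb in library 5) rests on few UMIs.

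**Figure D4:**
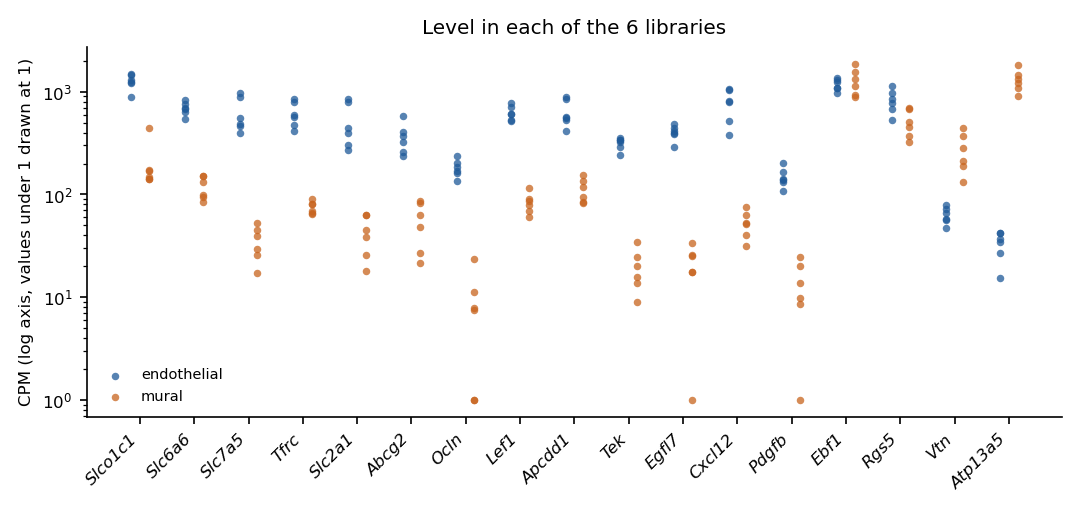
CPM of 17 genes (log axis, values under 1 drawn at 1) in the endothelial and mural nuclei of each of the 6 libraries, 1 point per library and set. The points of Slc2a1, Ocln, Tek, Pdgfb and Cxcl12 separate by set in every library, those of Atp13a5 separate the other way, and those of Rgs5 overlap.

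Because the mutant mice lack a cholesterol transporter, sterol genes are given for endothelial nuclei over all libraries together. Npc1 gave 325 UMIs, 29.6 CPM, against 29.2 in all other nuclei and 30.2 in mural nuclei, and the pooled log2 ratio to all other nuclei was 0.02 (-0.14 to 0.18). This pools mice of both genotypes, and whether the 3' counts register transcripts of the null allele was not tested. Its partner Npc2 stood at 33.7 CPM, against 20.1 in all other nuclei and 38.3 in mural nuclei. Of 22 genes of sterol uptake, export and regulation, Abca1, Lipa (the lysosomal lipase, 42.3 CPM against 12.9), Scarb1 (the receptor for high-density lipoprotein, 78.8 CPM against 32.1) and Abcg1 were 2-fold higher than in all other nuclei and 0 were lower. These 4 of 22 are near the 14.0% of all genes compared that were that much higher, so the count does not set the group apart. The share of all genes 2-fold lower was 13.5%. The summed level of the 22 was nevertheless above that of all other nuclei in every library, at 2043 CPM against 1197 pooled (log2 0.77, 0.75 to 0.79). Trimmed mean scaling left 0.55 of this. Single intervals lay above 0 for 16 members and below 0 for 3. Mural nuclei held the group at 2132 CPM, and the libraries were split, 3 each way. Fibroblast nuclei and microglia held more, at 2489 and 2269 CPM, and astrocyte nuclei held 1915. Excitatory and inhibitory neurons held 786 and 895 CPM. Soat1, which stores cholesterol as ester, was 2-fold lower than in mural nuclei, at 29.4 CPM against 59.8. Apoe, a large part of the sum, stood at 953 CPM, against 489 in all other nuclei and 1070.4 in mural nuclei.

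Sterol synthesis genes did not set endothelial nuclei apart. Of 20 enzymes, only Ebp was 2-fold higher than in all other nuclei, at 11.9 CPM against 5.83, where 14.0% of all genes were. The sum was 538 CPM against 487, a log2 ratio of 0.14 (0.11 to 0.18). That small excess was positive in 6 of 6 libraries as pooled, but it turned to -0.06 when each nucleus counted equally and to -0.08 under trimmed mean scaling, so the direction depends on the processing. Against mural nuclei the sum was 538 CPM against 678, a log2 ratio of -0.33 (-0.42 to -0.25), lower in 6 of 6 libraries. Mvd was the 1 member 2-fold lower, where 5.70% of all genes were. Hmgcs1, at the entry of the pathway, stood at 102 CPM, against 75.1 in all other nuclei and 126 in mural nuclei.

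The 20 cell-cycle genes summed to 95.8 CPM against 68.5 in all other nuclei, a log2 ratio of 0.48 (0.39 to 0.57), higher in 6 of 6 libraries, with 4 members 2-fold higher (Cdk1, Mcm2, Mcm3 and Mcm6, the last 3 being parts of the DNA replication helicase) and 1, Aurkb with 3 UMIs, lower, beside the 14.0% of all genes compared that were 2-fold higher and the 13.5% that were lower. Against mural nuclei the sum was 95.8 CPM against 103, a log2 ratio of -0.10 (-0.32 to 0.11). At least 5 UMIs of these genes were found, after thinning to 2000 UMIs, in 4 of 2435 endothelial nuclei (0.164%, 0.0448 to 0.42; 16 of 2701 unthinned), 3 of 428 mural nuclei (0.701%), 26 of 9771 astrocyte nuclei (0.266%) and 10 of 1714 microglia (0.583%). The intervals are wide and the astrocyte share lies inside the endothelial one, so no order is read from them.

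Within the endothelial nuclei, arterial and venous genes were used to look along the vascular tree. A nucleus was put on the arterial side with at least 2 UMIs of 7 genes (Sema3g, Gkn3, Bmx, Efnb2, Hey1, Gja4 and Vegfc) and 0 of 5 venous genes (Slc38a5, Nr2f2, Il1r1, Vcam1 and Vwf), and on the venous side the other way round. These sides are ranges of a count per nucleus and not cell types: 159 nuclei (5.89%) were arterial and 360 (13.3%) venous, 917 (34.0%) held none of the 12 genes, 311 held 1 arterial UMI only, 442 held 1 venous UMI only and 512 (19.0%) held UMIs of both lists. The arterial side had 25, 39, 40, 37, 9 and 9 nuclei in libraries 1 to 6 and the venous side 71, 82, 73, 72, 37 and 25. Median depth was 3988 and 3713.5 UMIs, and 2892 UMIs in nuclei with none of the genes, so shallow nuclei fall out of both sides more often. The defining genes are left out of all that follows.

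Of 7904 genes compared, 82 (1.04%) were 2-fold higher on the arterial side and 183 (2.32%) on the venous side, and without library 4 the first count was 143. The counts were 21 and 35 at 200 or more UMIs, and 32 and 90 after thinning to 2000 UMIs. The venous side had more nuclei, so a gene high only there passed the filter more easily, as Myof did with 0 arterial and 77 venous UMIs. The excess of venous calls is therefore not read as a result. Arterial genes held back from the definition summed to 3696 CPM against 1642, a log2 ratio of 1.17 (1.09 to 1.25), higher in 6 of 6 libraries, with 3 of the 13 that had enough UMIs past 2-fold. Cxcl12 alone made up 1430 of the arterial and 248 CPM of the venous sum. It stood at 1144, 2215, 1120, 499, 3399 and 2303 CPM on the arterial side of libraries 1 to 6 and at 272, 190, 172, 224, 437 and 471 CPM on the venous side, a pooled log2 ratio of 2.53 (2.36 to 2.7). The lowest arterial value, in library 4, was still above the highest venous value, and Cxcl12 was detected in 110 of 159 arterial nuclei (69.2%) and 118 of 360 venous nuclei (32.8%). The guidance receptor Unc5b stood at 143 against 31.6 CPM (log2 2.18, 1.68 to 2.69, 6 of 6 libraries), and the polyamine enzyme Amd1, which has near-identical copies, had a log2 ratio of 1.43. Arl15 stood at 1321 against 699.9 CPM, and Tm4sf1 and Sox17 had log2 ratios of 0.79 and 0.57, all under 2-fold. Cxcl12 and Arl15 gave 1120 and 1034 of the 2894 arterial UMIs of the list, so these genes carry most of its sum. Of the 13 members, 6 had intervals above 0 and 1 below 0. Egfr was detected in 8.8% of arterial and 11.9% of venous nuclei, and Mgp in 17.0% and 18.6%.

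Among other arterial genes, the BMP inhibitor Smad6 stood at 102 against 40 CPM (log2 1.35, 0.86 to 1.86), the laminin chain Lama1 at 149 against 52.2 CPM (log2 1.52, 1.10 to 1.94) and Gcnt2, which builds branched glycans, at 161 against 54.8 CPM (log2 1.55, 1.15 to 1.97, 6 of 6 libraries). The cell-cycle inhibitor Cdkn1c was 1.82 higher on the log2 scale in 6 of 6 libraries, and Tmem200a, Sytl2, Adamtsl1 and Plcxd3 completed the list of 10 largest ratios with 1.68, 1.60, 1.53 and 1.52. Mog and Sntb1 ranked among the 10 as well (log2 2.08 and 1.64), but 15 of 47 arterial Mog UMIs and 19 of 41 arterial Sntb1 UMIs came from 1 nucleus each, and Mog is a myelin gene. Mog, Sntb1, Sytl2 and Plcxd3 each changed sign in at least 1 other processing.

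Venous genes held back from the definition summed to 1049 CPM against 1820.1 on the arterial and venous side, a log2 ratio of -0.80 (-0.91 to -0.68), higher on the venous side in 6 of 6 libraries. Of the 9 with enough UMIs, 4 passed 2-fold, among them Icam1 (log2 -2.26, -3.77 to -1.05), Flt4 (-1.03, -1.74 to -0.37) and Car4, a membrane carbonic anhydrase (-1.30, -1.65 to -0.96). Myof, a membrane repair protein, gave 0 UMIs on the arterial and 77 on the venous side, at least 12.95-fold higher on the venous side with 3 counts allowed over the arterial side. Cysltr1, a leukotriene receptor, gave 2 and 88 UMIs (log2 -4.47, -7.54 to -2.58), Adgrg6, an adhesion receptor, 9 and 150 (log2 -3.07, -4.23 to -2.11), the apelin ligand Apln 8 and 122 (log2 -2.94, -4.19 to -1.92) and the secreted factor Ndnf 25 and 272 (log2 -2.46, -3.11 to -1.86). Acnat1, Prdm1, Rp1, Dach2 and Lcp2 completed the 10 largest, from -3.04 to -2.47.

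Tip-cell genes, which mark the leading cells of growing vessels, were higher on the venous side. The sum of 12 tip-cell genes, which uses no filter, had a log2 ratio of -1.26 (-1.55 to -0.99), venous in 6 of 6 libraries. Of the 6 with enough UMIs, 4 were 2-fold higher on the venous side, where 2.32% of all genes were. They were Apln, Mcam (-1.52), Trp53i11 (-1.60) and Angpt2 (-1.0). Genes high on the venous side passed the filter more easily, as Apln did with 8 arterial and 122 venous UMIs. The count of 4 is therefore not read as a result. Of 11 growth factor genes with enough UMIs 5 were 2-fold higher on the venous side, beside 2.32% of all genes. They included the apelin receptor Aplnr (-2.00, 5 of 6 libraries) and Nrp2 (-1.03). The others were Apln and Angpt2, already counted as tip-cell genes, and Flt4, already counted in the venous list. This count is therefore no separate result, and the same filter favoured the venous side. Of 18 basement membrane genes with enough UMIs, 2 were 2-fold higher on the venous side and 1, Lama1, on the arterial side, beside 2.32% and 1.04% of all genes, and the sum had a log2 ratio of -0.39 (-0.45 to -0.32), venous in 5 of 6 libraries. Fibronectin stood at 323 against 702 CPM (log2 -1.12, -1.32 to -0.92) and Lama4 at 146 against 399 CPM (log2 -1.45, -1.75 to -1.16). Of the 25 genes that led the whole endothelial set, Fendrr (-1.60), Clec1a (-1.21), Ly75 (-1.17), Kcp (-1.12) and Thsd1 (-1.12) were 2-fold higher on the venous side and Tecrl (1.03) on the arterial side. Fendrr, Clec1a and Tecrl gave only 233, 323 and 303 UMIs in all endothelial nuclei. The filter favoured venous genes, so this split is not read as a result.

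Wnt genes summed to a log2 ratio of -0.46 (-0.53 to -0.38) and junction genes to -0.42 (-0.48 to -0.36), venous in 6 of 6 libraries each, with 1 of 20 and 0 of 15 members past 2-fold, which is near the 1.04% arterial and 2.32% venous of all genes compared. Lef1 had a log2 ratio of -0.80, Mecom -0.90, Nos3 -0.92 and Tfrc -0.71, and Mfsd2a lay on the arterial side at 0.43. Notch genes summed to a log2 ratio of 0.23 (0.04 to 0.41), arterial in 6 of 6 libraries, yet the ligand Dll4 and the receptor Notch4 had ratios of -0.36 (-1.19 to 0.41) and -0.04 (-0.54 to 0.44), which do not separate from 0. The 14 genes of capillary endothelium were -0.11 (-0.15 to -0.08) on the log2 scale in the nuclei of neither side against both sides together, a sign that turned when nuclei were weighted equally or when other-class UMIs were limited further.

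Other RNA moved with the sides too. Neuronal markers stood at 6792 CPM against 4454 on the arterial and venous side (higher in 5 of 6 libraries), and blood genes at 889 CPM against 509.8 (higher in 3 of 6 libraries), while astrocyte markers had a log2 ratio of -0.22. The blood difference rested on library 6, whose 9 arterial nuclei held 12039 CPM, and without that library the sides stood at 465 and 497 CPM, a log2 ratio of -0.10. Fibroblast markers stood at 140.5 CPM against 208, a log2 ratio of -0.56 (-0.89 to -0.25), higher on the venous side in 6 of 6 libraries. Fibroblast nuclei held the venous defining genes at 281.3 CPM against 281.8 in endothelial nuclei and the held-back venous genes at 2398 CPM against 1367. Stmn2 stands on both the arterial and the neuronal list. The part of these RNAs in the arterial and venous ratios was not tested. When nuclei with 4 or more UMIs of any other class were left out, 9 arterial and 17 venous nuclei remained, too few to read the sides, and the arterial and venous held lists then had log2 ratios of 1.5 and -0.28.

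**Figure D5:**
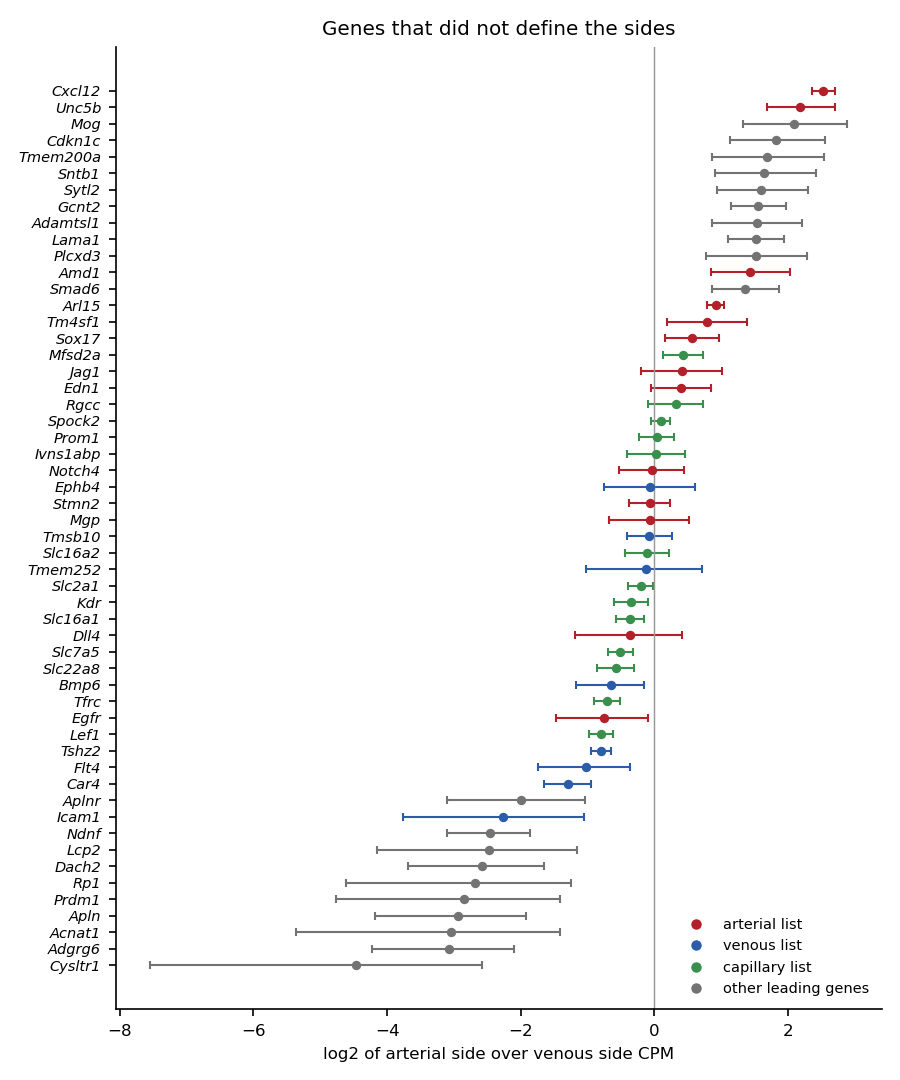
Log2 ratio of arterial-side to venous-side CPM (horizontal axis) with 95% binomial intervals for held-back arterial genes (red), venous genes (blue), capillary genes (green) and the other leading genes (grey). Cxcl12 at 2.53 and Unc5b at 2.18 lie furthest to the arterial side of the arterial list, and Icam1 at -2.26 and Car4 at -1.30 lie on the venous side.

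Without libraries 5 and 6 the main descriptions kept their direction. Solute carriers were 2.55 higher than in all other nuclei on the log2 scale (2.67 with all libraries), 1047 genes were 2-fold higher than in mural nuclei (1107 with all), and the arterial and venous held lists had log2 ratios of 1.16 and -0.75.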

How the data were processed

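Nuclei were freed from frozen forebrain with a Dounce homogenizer and sequenced from 10x Chromium 3' droplet libraries. The values are UMI counts per gene and barcode as deposited, in 1 joined matrix of 32285 genes and 75878 barcodes that the authors had already called as nuclei. The file header names Cell Ranger 6.0.0, the submitters' processing notes name Cell Ranger 2.1.1 and mm10, and the study's methods describe STARsolo with GRCm38, so the settings behind the counts are uncertain. Doublet removal and the study's own cell types are not marked in the matrix.

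Libraries were read from the barcode suffix and were not tied to mice, so genotypes were not compared. The sets of nuclei were chosen by the counts compared, so no test was made between them. Counts were summed over nuclei per set, scaled to CPM and compared with exact Poisson, binomial and Clopper-Pearson intervals at 95%, which cover counting error only (Python 3.11.15, numpy 2.4.6, scipy 1.17.1, pandas 2.3.3). Mitochondrial share was kept under 10%, and comparison classes were taken by 4 or more UMIs of 3 or more of their genes (3 or more UMIs for neurons) with at most 1 UMI of Flt1. The ratios and intervals were tested on simulated data. Near-identical genes (the haemoglobins, Ly6a and Ly6c1, H2-D1 and H2-K1, Amd1) and overlapping genes are uncertain. Coordinates are those of GENCODE vM21 for GRCm38 and promoter letters those of RefSeq for GRCm38.p6.

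The members and the gene lists were chosen with earlier results of these data known. Named genes are those of the rule and of the lists (up to 5 members of highest UMI sum or largest ratio of each list), the 25 genes of highest endothelial ratio with 200 or more endothelial UMIs no Gm or Rik name and no place in the rule, and the 10 of largest ratio on each vascular side. Members of a list named beyond these were chosen after their values were seen, as were the leading genes that are described on the vascular sides and the motifs. Alternatives changed the limits of the rule, the filter on low counts, the scaling, the depth and the libraries. Some genes of the lists are not reported here by name.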

Additional observations from a re-analysis of the deposited data

How the results depend on the processing

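Scrublet's own threshold called under 0.5% of nuclei in 5 of 6 libraries, so the planned removal of its doublets was not run. Chosen after seeing the data were leaving out the 8% of nuclei with the highest doublet score, the 10% of endothelial nuclei with most RNA of other classes, libraries 5 and 6, the mural and neuronal limits, and, from all other nuclei, those that met both endothelial criteria. No paired analysis was possible because the results come from no test, and the replicate numbers of the labels are not tied to the barcode suffixes. Of 188 alternatives of the main results 125 kept the value within its exact 95% interval or, for a count of genes, within 1.5 times, 59 moved it further and 4 reversed it. Of 5865 for single genes 4292 kept the value within its interval, 1566 moved it further and 7 reversed. A reversal was counted only for a gene that was at least 2-fold different in the main result.

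The endothelial share (3.56%) was 3.20% with Flt1 at 3 or more UMIs, 1.76% with 0 mural and neuronal UMIs, 2.94% without nuclei of 4 or more UMIs of other classes, 3.91% without the 10% of nuclei with most UMIs, 4.0% as the median over libraries, 3.22% without the 10% with most other RNA, 4.17% without libraries 5 and 6, 6.67% with no mural and neuronal limits, and 3.35% to 3.86% without each library in turn.

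The solute carrier log2 ratio (2.67) was 2.77 with the Flt1 limit, 3.24 without nuclei of 4 or more other UMIs, 2.60 without the 10% with most UMIs, 2.55 as a mean over nuclei, 2.66 as the median over libraries, 2.81 without the highest doublet scores, 2.74 without the most other RNA, 2.55 without libraries 5 and 6, 2.97 against the reduced set of other nuclei and 2.61 to 2.77 without each library. Sterol synthesis (0.14) was 0.10, 0.037, -0.058 and 0.033 with the Flt1 limit, without the 10% with most UMIs, as a mean over nuclei and without the most other RNA, and 0.11 to 0.18 without each library.

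Genes 2-fold higher than in mural nuclei (1107) and lower (782) numbered 447 and 119 without nuclei of 4 or more other UMIs, which left 132 endothelial and 10 mural nuclei, 706 and 414 at 200 or more UMIs, and 1068 to 1161 and 680 to 807 without each library. Genes 2-fold higher than in all other nuclei (3090) numbered 2195 with trimmed mean scaling, 2235 as a mean over nuclei, 2447 without the 10% with most UMIs, 2611 without libraries 5 and 6 and 2835 to 3388 without each library. Trimmed mean scaling took the higher genes from 50.9% to 35.5% of all 2-fold differences from other nuclei.

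Genes 2-fold higher on the arterial side (82) numbered 125 with 0 mural and neuronal UMIs, 6 without nuclei of 4 or more other UMIs, 52 without the 10% with most UMIs, 148 as the median over libraries, 21 at 200 or more UMIs, 32 after thinning to 2000 UMIs, and 65 to 143 without each library, the highest without library 4. Venous genes (183) numbered 5, 323, 35 and 90 without nuclei of 4 or more other UMIs, as the median over libraries, at 200 or more UMIs and after thinning, and 164 to 189 without each library.

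The arterial list (1.17) was 1.49, 1.32, 1.28, 1.66, 1.60 and 1.30 without nuclei of 4 or more other UMIs, without the 10% with most UMIs, as a mean over nuclei, with 3 or more defining UMIs, after thinning and without the highest doublet scores, and 1.06 to 1.23 without each library. The venous list (-0.80) was -0.28 without nuclei of 4 or more other UMIs and -0.98 with 3 or more defining UMIs, and -0.93 to -0.70 without each library. The capillary list (-0.11) was -0.023, 0.068, 0.026, -0.15, 0.0066, -0.070 and -0.045 with the Flt1 limit, with 0 mural and neuronal UMIs, without nuclei of 4 or more other UMIs, without the 10% with most UMIs, as a mean over nuclei, as the median over libraries and without libraries 5 and 6, and -0.15 to -0.059 without each library.

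Single genes that reversed were Sntb1 (-0.95 with 0 mural and neuronal UMIs), Alpl (-0.24 as the median over libraries), Mog (-0.076 with 3 or more defining UMIs and -0.064 after thinning), Sytl2 (-0.33 with 3 or more defining UMIs) and Plcxd3 (-0.29 after thinning), all arterial over venous, and Slc4a4 over mural nuclei (0.65 without nuclei of 4 or more other UMIs). The cause of these shifts was not tested. The number of nuclei limits the vascular sides, with 9 arterial nuclei each in libraries 5 and 6.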
